A study of Mus musculus with 6 samples.

Results

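The genes described here build the perineuronal net and the hyaluronan-bound matrix of the brain. They were taken by name from the expression table of each mouse: the 4 lecticans *Acan*, *Bcan*, *Ncan* and *Vcan*, the link proteins *Hapln1*, *Hapln2* and *Hapln4*, the tenascins *Tnr* and *Tnc*, and the hyaluronan synthase *Has3*. All 10 genes were present, among 21667 named genes. RNA-Seq was made from somatosensory cortex of 6 male mice, 3 control and 3 *Mef2c* cKO, whose background was a mix of SVeV-129 and C57BL/6J. Both genotypes were Mef2cfl/fl, so that the floxed allele was common to all mice, and the *Mef2c* cKO mice carried in addition Emx1-Cre, while the controls were Cre-negative littermates. In both genotypes replicate 1 was 14 weeks old and replicates 2 and 3 were 12 weeks old. Emx1-Cre acts in the forebrain lineage that gives rise to excitatory neurons and to some glia, while cortical interneurons arise outside it. The tissue was a bulk dissection, in which fewer cells of a type and less RNA per cell cannot be told apart.

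Perineuronal nets are lattices of matrix around the soma and proximal dendrites of certain neurons, above all the fast-spiking interneurons that express parvalbumin. Hyaluronan chains made at the cell surface form the backbone, lecticans (chondroitin sulfate proteoglycans) bind to it with one end, link proteins lock that contact, and tenascin-R cross-links the other ends of the lecticans. The nets mature late in postnatal life and are known for limiting plasticity, and related assemblies of the same families surround nodes of Ranvier and fill the looser matrix between cells.

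The question the comparison addresses is which transcripts differ in cortex after loss of the transcription factor MEF2C from the Emx1 lineage. The totals by which the deposited values had been divided, called library totals here, lay between 19326365 and 54128334 reads. The recovered gene counts summed to 99.82% to 99.88% of each total. The totals are thus close to sums over genes and do not give the share of sequenced reads that fell on genes. Each member was covered by at least 77 and at most 16977 reads in a mouse. Levels are given as CPM, the reads of a gene divided by the library total and scaled to one common library size. Over 14590 genes, log2 levels correlated at 0.992 to 0.995 between mice of one genotype and at 0.978 to 0.981 between genotypes. The targeted gene, counted over all its exons, had 800.3, 771.8 and 800.2 CPM in controls and 1231, 1276 and 1468 CPM in *Mef2c* cKO mice, and was higher in the latter (log2 change 0.74, adjusted p = 0.000177 by limma). A count over the whole gene includes exons outside the floxed part, so it does not check the deletion, and the direction of the genotype labels rests on the labels alone.

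Of the 10 members, 3 passed both cut-offs, an adjusted p under 0.05 and an absolute log2 fold change above 0.3. *Tnc* and *Hapln2* were higher and *Acan* was lower in *Mef2c* cKO mice. The same cut-offs were passed by 13.7% of the 14613 genes tested, 5.89% upward and 7.77% downward. The mice of the 2 genotypes did not overlap for 6 members, 5 of them higher and 1 lower in *Mef2c* cKO mice, and did not overlap for 33.8% of all genes. The members' median log2 fold change was 0.18, against 0.01 over all genes tested.

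**Figure D1:**
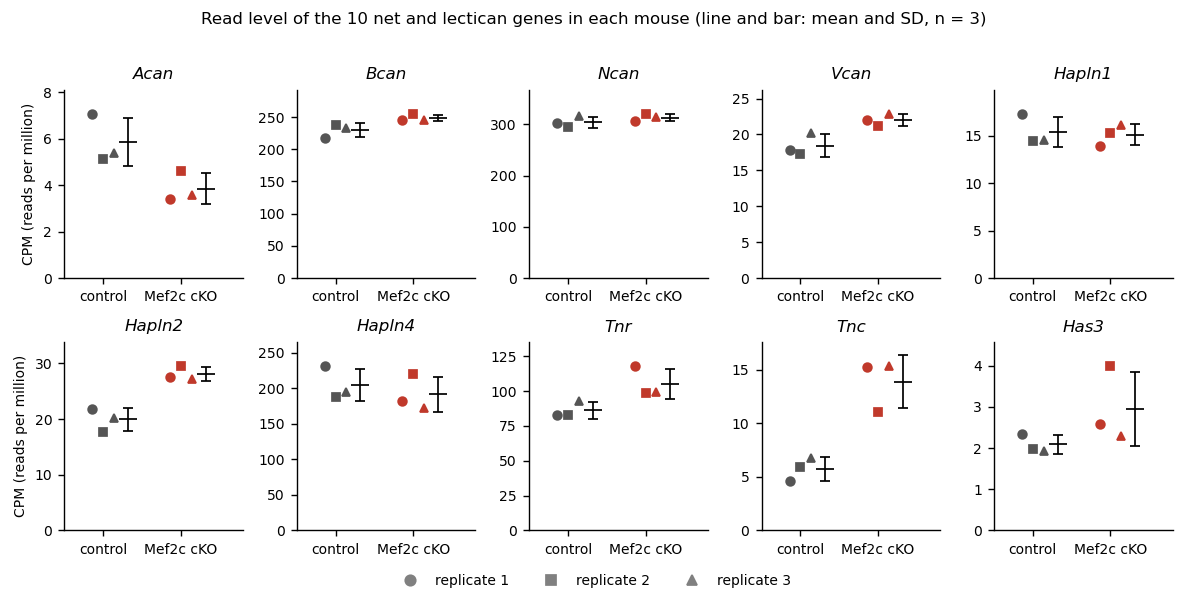
CPM of each member in each mouse, on linear axes that start at 0, with controls in grey, *Mef2c* cKO mice in red, a marker shape for each replicate number and the mean and SD (n = 3) beside the points. The 3 *Mef2c* cKO mice lie above the controls for *Tnc* (11.02 to 15.3 against 4.59 to 6.75 CPM) and *Hapln2*, and below them for *Acan*.

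The promoters of the members that passed are shown because these are the genes whose transcript level differed between genotypes. Each is the run of 250 bases just before the transcription start in RefSeq, read on the gene's own strand of GRCm38.p6, in lower case with the letters TATAAA in capitals. The *Acan* run is chr7:79052976-79053225 on the plus strand, the *Hapln2* run chr3:88027512-88027761 on the minus strand and the *Tnc* run, before the more upstream of its 2 listed starts, chr4:64047016-64047265 on the minus strand.
Acan: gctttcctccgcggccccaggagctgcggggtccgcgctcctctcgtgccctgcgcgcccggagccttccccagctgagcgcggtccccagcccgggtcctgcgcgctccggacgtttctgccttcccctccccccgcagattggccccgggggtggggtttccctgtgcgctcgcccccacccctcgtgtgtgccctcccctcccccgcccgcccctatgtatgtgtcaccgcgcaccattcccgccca
Hapln2: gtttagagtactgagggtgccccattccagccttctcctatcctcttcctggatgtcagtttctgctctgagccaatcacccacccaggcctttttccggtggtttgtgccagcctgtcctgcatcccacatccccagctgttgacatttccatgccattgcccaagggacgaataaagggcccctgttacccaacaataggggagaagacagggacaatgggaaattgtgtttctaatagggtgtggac
Tnc: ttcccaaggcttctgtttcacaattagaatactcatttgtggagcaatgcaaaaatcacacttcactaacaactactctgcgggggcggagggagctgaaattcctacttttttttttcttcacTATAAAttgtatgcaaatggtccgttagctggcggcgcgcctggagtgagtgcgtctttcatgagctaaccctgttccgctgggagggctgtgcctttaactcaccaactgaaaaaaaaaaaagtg

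The *Acan* run was 74.4% G or C, the *Hapln2* run 52.4% and the *Tnc* run 44.8%, against a median of 52.4% over 32851 such runs. TATAAA, searched on both strands, was found in the *Tnc* run but not in the *Acan* and *Hapln2* runs, and in 12.4% of all runs. The consensus site of MEF2 factors, which reads alike on both strands, was found in none of the 9 runs of the 8 members that had one (*Hapln4* and *Has3* had none) and in 2.92% of all runs. A match or its lack describes these letters in this window and nothing further.

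The lecticans differ in where and when they are made, and their core proteins share the ends that bind hyaluronan and tenascin-R. *Acan* (chromosome 7 of NCBIM37, 86198369 to 86259985, plus strand, 17 exons) encodes aggrecan, the lectican most closely tied to perineuronal nets. Its level was 7.06, 5.12 and 5.39 CPM in controls 1 to 3 and 3.39, 4.61 and 3.57 CPM in *Mef2c* cKO mice 1 to 3. The highest *Mef2c* cKO mouse was below the lowest control, by a small margin, and the means were 5.86 ± 1.047 and 3.85 ± 0.657 CPM (SD, n = 3). *Acan* fell by 0.59 on the log2 scale (SE 0.17, adjusted p = 0.0441 by limma), with 89 to 278 reads behind the value of each mouse. This call is narrow. It was lost when any mouse but *Mef2c* cKO replicate 2 was left out, with log2 changes of -0.68 to -0.45 and limma adjusted p from 0.0589 to 0.143. Without *Mef2c* cKO replicate 2 it was kept, at -0.72 (adjusted p = 0.0248 by limma). It was also lost in the 4 mice of 12 weeks alone, where the log2 fold change was -0.37 (adjusted p = 0.278 by limma).

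*Bcan* (chromosome 3, 87791453 to 87804278, minus strand, 14 exons) encodes brevican, a lectican of the mature brain made by glia and neurons. Its level was 217.8, 238.0 and 233.3 CPM in controls and 245.9, 254.3 and 245.6 CPM in *Mef2c* cKO mice. The *Mef2c* cKO mice were all above the controls, but the difference was small and did not pass, with a log2 change of 0.12 (95% interval -0.01 to 0.24, adjusted p = 0.211 by limma). *Ncan* (chromosome 8, 72616984 to 72644772, minus strand, 15 exons) encodes neurocan, a nervous-system lectican most abundant during development. It had 302.6, 294.2 and 315.8 CPM in controls and 307.0, 319.9 and 313.6 CPM in *Mef2c* cKO mice. Here the genotypes overlapped, and the log2 change of 0.04 had a 95% interval from -0.08 to 0.16 (adjusted p = 0.645 by limma). Among the members, these 2 genes had the tightest spread between mice, with an SD of 0.03 to 0.07 on the log2 scale within a genotype.

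*Vcan* (chromosome 13, 89794915 to 89882117, minus strand, up to 17 exons) encodes versican, which in brain is made largely by cells of the oligodendrocyte lineage and by other glia. It had 17.8, 17.3 and 20.2 CPM in controls and 21.96, 21.2 and 22.8 CPM in *Mef2c* cKO mice. Every *Mef2c* cKO mouse was above every control. The log2 change of 0.25 (95% interval 0.06 to 0.45) did not pass after adjustment over all genes (adjusted p = 0.0834 by limma). A long intergenic RNA gene and a pseudogene on the opposite strand overlap *Vcan* in the annotation. The library was directional, but the strand setting of the counting is not given in the sources used here. Transcripts on the opposite strand likewise overlap *Tnc*. Among the genes named further on, they overlap *Adamts9*, *Aldh1l1*, *Bcas1*, *Chst11*, *Col1a1*, *Gad1*, *Gfap*, *Has2*, *Itgav*, *Lhfpl3*, *Matn4*, *Penk* and *Tnxb*. The reads of all these genes may include antisense reads.

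Summed over the 4 lecticans, the level was 545.2, 554.6 and 574.7 CPM in controls and 578.2, 600.0 and 585.6 CPM in *Mef2c* cKO mice. The *Mef2c* cKO mice were all higher, with means of 558.2 ± 15.1 and 588.0 ± 11.1 CPM (SD, n = 3). The exact two-sided permutation test gave p = 0.1, which is the smallest value that 3 mice against 3 can give. Per exon length, *Bcan* made up 61.3% ± 1.51 of lectican transcripts in controls and 62.5% ± 0.279 in *Mef2c* cKO mice, and *Ncan* 36.9% ± 1.35 and 35.8% ± 0.252. *Vcan* held 1.11% ± 0.0782 and 1.25% ± 0.0663. *Acan* was the smallest share, 0.697% ± 0.146 in controls and 0.430% ± 0.0644 in *Mef2c* cKO mice (SD, n = 3). These shares depend on the transcript model. Per kilobase of exons *Bcan* and *Ncan* had 70.3 and 42.3 CPM in controls, and per kilobase of coding length 86.7 and 79.97.

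The link proteins sit beside lecticans on the chromosomes as well as in the matrix. In NCBIM37, *Hapln2* lies 21393 bases from *Bcan*, *Hapln4* lies 2222 bases from *Ncan*, *Hapln1* lies 43477 bases from *Vcan*, and *Hapln3*, which is not a member, ends 40 bases from *Acan*. *Hapln1* (chromosome 13, 89680241 to 89751437, plus strand, 5 exons) encodes the cartilage link protein, which neurons with nets express. It had 17.3, 14.5 and 14.6 CPM in controls and 14.0, 15.3 and 16.2 CPM in *Mef2c* cKO mice. The genotypes overlapped fully and the log2 fold change was -0.03 (95% interval -0.26 to 0.21, adjusted p = 0.903 by limma).

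*Hapln4* (chromosome 8, 72607428 to 72614761, plus strand, 5 exons) encodes a brain link protein that stabilises brevican in nets. It had 230.8, 187.9 and 195.0 CPM in controls and 182.9, 219.6 and 172.2 CPM in *Mef2c* cKO mice. The genotypes overlapped, with 1 high mouse in each, and the log2 fold change was -0.10 (95% interval -0.33 to 0.14, adjusted p = 0.597 by limma). The interval of *Hapln4* includes a decrease as large as the fold cut-off, and that of *Hapln1* does not reach it in either direction.

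*Hapln2* (chromosome 3, 87825672 to 87831505, minus strand, up to 7 exons) encodes the brain link protein of the nodes of Ranvier, made by oligodendrocytes. It had 21.9, 17.7 and 20.2 CPM in controls and 27.6, 29.4 and 27.1 CPM in *Mef2c* cKO mice. Each *Mef2c* cKO mouse was above each control, by more than the range within either genotype. The means were 19.9 ± 2.09 and 28.1 ± 1.21 CPM (SD, n = 3), a log2 change of 0.50 (SE 0.09, adjusted p = 0.00558 by limma). In the 12-week mice alone it was 0.58 (adjusted p = 0.0171 by limma). Per exon length, *Hapln2* held 12.3% ± 0.580 of the 3 link protein transcripts in controls and 17.4% ± 1.09 in *Mef2c* cKO mice. *Hapln4* held most of the rest, 83.3% ± 0.514 and 78.2% ± 1.63 (SD, n = 3).

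The neighbours in each pair can be set side by side. *Hapln2* passed the cut-offs while *Bcan* did not, and *Acan* passed while *Hapln3* had 0.617, 0.810 and 0.951 CPM in controls and 1.16, 0.880 and 0.721 CPM in *Mef2c* cKO mice, a log2 change of 0.19 (95% interval -0.36 to 0.74, adjusted p = 0.67 by limma). In the pairs *Ncan* with *Hapln4* and *Vcan* with *Hapln1* neither gene passed. The difference between the genes of a pair was not tested.

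**Figure D2:**
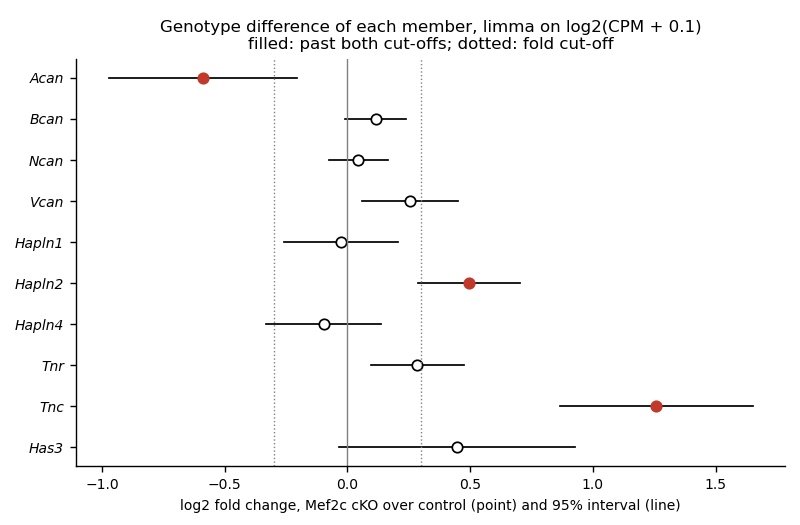
Log2 fold change of each member, *Mef2c* cKO over control, with its 95% interval from limma (n = 3 mice per genotype), filled where both cut-offs were passed and dotted lines at the fold cut-off of 0.3 in either direction. *Tnc* stands at 1.26, *Hapln2* at 0.50 and *Acan* at -0.59, and the intervals of *Bcan*, *Ncan*, *Hapln1*, *Hapln4* and *Has3* include 0.

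Tenascins are large glycoproteins of several arms, of which tenascin-R is the form of the mature central nervous system and tenascin-C is typical of development, of germinal zones and of reactive tissue. *Tnc* (chromosome 4, 63620819 to 63681760, minus strand, up to 26 exons) had 4.59, 5.91 and 6.75 CPM in controls and 15.3, 11.02 and 15.3 CPM in *Mef2c* cKO mice. The lowest *Mef2c* cKO mouse was well above the highest control. The means were 5.75 ± 1.09 and 13.9 ± 2.48 CPM (SD, n = 3), a ratio of 2.41 and a log2 change of 1.26 (SE 0.17, adjusted p = 0.00108 by limma). *Tnc* remained past both cut-offs with any mouse left out, at log2 changes of 1.11 to 1.41, and in the 12-week mice alone, at 1.03 (adjusted p = 0.0146 by limma). A long intergenic RNA gene on the opposite strand overlaps *Tnc* in the annotation.

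*Tnr* (chromosome 1, 161667641 to 161855053, plus strand, up to 22 exons), the cross-linker of nets, had 82.5, 82.9 and 93.2 CPM in controls and 117.7, 98.6 and 99.4 CPM in *Mef2c* cKO mice. Every *Mef2c* cKO mouse was higher than every control, and *Mef2c* cKO replicate 1 stood above the other two. The log2 change of 0.28 (SE 0.08) had an adjusted p of 0.0477 by limma and was just under the fold cut-off, so that *Tnr* was not called. An adjusted p under 0.05 alone was reached by 4 members, and by 16.3% of all genes tested. Without *Mef2c* cKO replicate 1 and control replicate 1, in the 12-week mice alone, the log2 change of *Tnr* was 0.17 (adjusted p = 0.257 by limma). Per exon length, *Tnc* held 4.19% ± 0.572 of the transcripts of these 2 tenascins in controls and 7.99% ± 1.18 in *Mef2c* cKO mice (SD, n = 3), so *Tnr* remained the main one.

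*Has3* (chromosome 8, 109394142 to 109406802, plus strand, 4 exons) encodes a hyaluronan synthase, an enzyme in the cell membrane that extrudes hyaluronan. It had 2.35, 1.98 and 1.94 CPM in controls and 2.60, 3.98 and 2.29 CPM in *Mef2c* cKO mice. The genotypes overlapped and *Mef2c* cKO replicate 2 was far above the other mice. *Has3* had the fewest reads of the members, 77 to 124 per mouse. Its log2 change of 0.45 (95% interval -0.04 to 0.93, adjusted p = 0.208 by limma) did not pass, and it was 0.22 without *Mef2c* cKO replicate 2. The other 2 synthases had no more than 1.03 CPM in a mouse. *Has1* had a log2 change of 0.13 (adjusted p = 0.73 by limma), and *Has2*, at 0.162 to 0.462 CPM, was too low to be tested.

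Compared per length, as CPM per kilobase of annotated exons, the members spanned a wide range. In controls the order was *Bcan* at 70.3 ± 3.24, *Hapln4* at 57.2 ± 6.43, *Ncan* at 42.3 ± 1.52, *Tnr* at 17.4 ± 1.22, *Hapln2* at 8.41 ± 0.883, *Hapln1* at 3.06 ± 0.316, *Vcan* at 1.28 ± 0.108, *Acan* at 0.796 ± 0.142, *Tnc* at 0.766 ± 0.145 and *Has3* at 0.354 ± 0.0383 (SD, n = 3). Neighbours in this order did not overlap between mice, except *Acan* and *Tnc*. In *Mef2c* cKO mice the first 6 places were the same. *Tnc*, at 1.85 ± 0.33, then stood at place 7 and overlapped with *Vcan*, at 1.52 ± 0.0572, while *Acan*, at 0.524 ± 0.0893, stood at place 9 and overlapped with *Has3*, at 0.5002 ± 0.153. The level per length, and with it each share within a family, depends on the transcript model. With the longest coding length in place of the exon union, *Hapln4* came to 170.5 per kilobase in controls, above *Bcan* at 86.7.

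**Figure D3:**
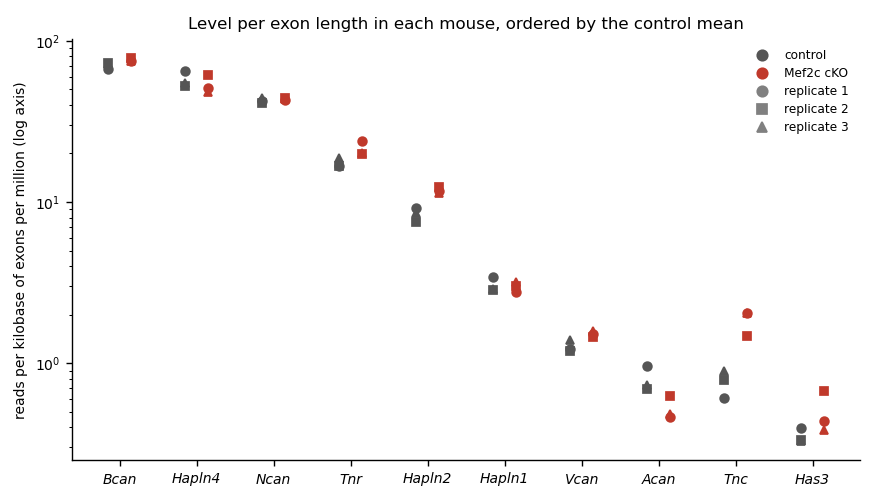
CPM per kilobase of annotated exons for each member in each mouse, on a log axis, ordered by the control mean, with controls in grey and *Mef2c* cKO mice in red. *Bcan*, *Hapln4* and *Ncan* lie above 40 in every mouse, and *Acan*, *Tnc* and *Has3* were at or below 1 in the controls, with *Tnc* above 1 in all 3 *Mef2c* cKO mice.

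Further genes of the net were read from a list of 68, of which 63 could be tested. Of these, 7 rose, 6 fell and 50 did not pass, a share of 20.6% against the 13.7% of all genes. The members and lists were chosen with earlier results of these data known, so such shares are given as a description. Of the 7 that rose, *Tnn* met the filter on low values in *Mef2c* cKO mice alone, so its call follows from the filter in part. The median log2 fold change of the tested genes was 0.02.

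The 8 other genes of the same families include a pair of tenascins, *Tnn* and *Tnxb*. *Tnn*, tenascin-W, a form typical of bone and of tumour stroma, had 0.323, 0.243 and 0.116 CPM in controls and 2.90, 2.17 and 3.49 CPM in *Mef2c* cKO mice. All controls were under the filter of 0.5 CPM, so the gene entered the test through the *Mef2c* cKO mice alone, and its log2 change of 3.20, on the scale with a pseudocount of 0.1, is given as a description. *Tnxb*, tenascin-X, a form of connective tissue, had 4.91, 6.01 and 5.86 CPM in controls and 16.4, 21.9 and 13.9 CPM in *Mef2c* cKO mice. Its groups were far apart, with a log2 change of 1.60 (SE 0.16, adjusted p = 0.000196 by limma). The cell surface proteoglycans *Cspg4*, *Cspg5* and *Ptprz1* did not pass, with log2 changes of 0.10, -0.16 and 0.02.

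Chondroitin sulfate chains are built on lecticans by a series of enzymes, and 2 of 21 tested genes for them rose while 19 did not pass. *Chst11*, a chondroitin 4-O-sulfotransferase, went from 37.1 ± 1.70 to 52.7 ± 2.92 CPM (log2 change 0.51, adjusted p = 0.00104 by limma). *Ust*, which adds sulfate to uronic acid of the chain, went from 20.8 ± 0.568 to 33.9 ± 1.45 CPM (log2 change 0.70, adjusted p = 0.000171 by limma). *Chst3*, a 6-O-sulfotransferase, had 3.03 ± 0.812 CPM in controls and 3.96 ± 0.593 CPM in *Mef2c* cKO mice and did not pass (adjusted p = 0.244 by limma). The share that passed in this role, 9.52%, was below that of all genes.

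Of the proteases, hyaluronidases, lysosomal enzymes and inhibitors that break the matrix down or spare it, 1 of 22 tested genes rose and 2 fell. All 3 belong to the ADAMTS proteases, several of which cut lecticans. *Adamts15* went from 8.98 ± 0.871 to 5.56 ± 0.365 CPM (log2 change -0.68, adjusted p = 0.0038 by limma). *Adamts8* went from 3.45 ± 0.519 to 1.87 ± 0.138 CPM (log2 change -0.84, adjusted p = 0.00645 by limma). *Adamts9* went the other way, from 2.64 ± 0.73 to 4.27 ± 0.527 CPM (log2 change 0.70, adjusted p = 0.0408 by limma). *Adamts4*, the best known brevican-cutting enzyme of brain, had 20.03 ± 5.27 and 26.5 ± 3.37 CPM and did not pass (adjusted p = 0.137 by limma).

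Receptors and proteins held by the net had 46.2% of 13 tested genes past the cut-offs, with 2 higher and 4 lower, against 13.7% of all genes. As the list was chosen with earlier results known, that share is a description. *Itgav*, the integrin alpha-V subunit, went from 191.4 ± 10.9 to 95.3 ± 3.26 CPM (log2 change -1.004, adjusted p = 9.86e-06 by limma). *Ptprf*, a LAR-type receptor phosphatase that binds proteoglycans, went from 78.1 ± 4.62 to 44.3 ± 6.94 CPM (log2 change -0.83, adjusted p = 0.000875 by limma), while its relative *Ptprs* had a log2 change of -0.19 and did not pass the fold cut-off. The related Nogo receptors moved in opposite directions. *Rtn4rl1*, a receptor for chondroitin sulfate, went from 85.3 ± 4.03 to 59.7 ± 3.35 CPM (log2 change -0.51, adjusted p = 0.000702 by limma), and *Rtn4rl2* went from 26.7 ± 3.82 to 57.7 ± 1.28 CPM (log2 change 1.12, adjusted p = 8.19e-05 by limma). The neuronal pentraxins, which cluster glutamate receptors, also split. *Nptx1* went from 392.2 ± 22.9 to 577.7 ± 20.04 CPM (log2 change 0.56, adjusted p = 0.000306 by limma), and *Nptx2*, an activity-regulated pentraxin found on cells with nets, went from 74.3 ± 15.1 to 40.2 ± 15.0 CPM (log2 change -0.95, adjusted p = 0.041 by limma).

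**Figure D4:**
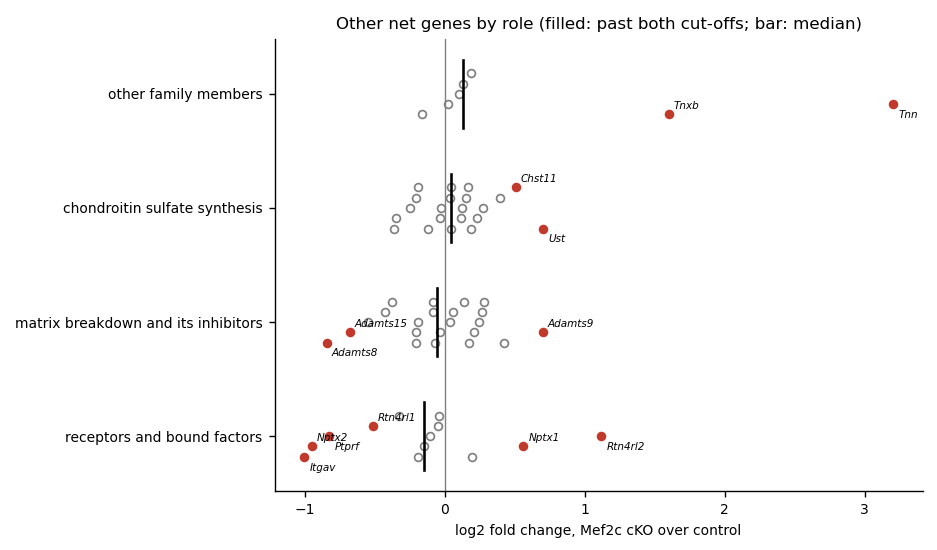
Log2 fold change, *Mef2c* cKO over control, of the 63 tested genes of the net outside the members, in rows by role, with a bar at the median of each row and genes past both cut-offs filled and named. *Tnn* (3.20, tested through the *Mef2c* cKO mice alone) and *Tnxb* (1.60) stand apart on the right, and receptors and bound factors hold 4 of the 6 genes that fell.

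Lists of marker genes show what moved beside the members. For *Acan*, the relevant list is that of parvalbumin interneurons. *Pvalb*, which encodes parvalbumin, had 62.7, 57.2 and 60.9 CPM in controls and 31.5, 39.3 and 33.5 CPM in *Mef2c* cKO mice (log2 change -0.80, adjusted p = 0.000301 by limma). *Syt2*, the calcium sensor of their synapses, had 60.5, 44.1 and 50.7 CPM in controls and 18.2, 23.3 and 24.4 CPM in *Mef2c* cKO mice (log2 change -1.23, adjusted p = 0.000306 by limma). Both were lower in all 3 *Mef2c* cKO mice. The other 10 genes of this list did not pass. Among them *Gad1*, *Kcnc1* and *Lhx6* had log2 changes of -0.26, -0.01 and -0.08, and *Gad2* of 0.16. In the list, 5 of 12 genes had a positive log2 fold change and 6 an unadjusted p under 0.05 by limma. The list's median log2 fold change was -0.05. Its summed level ranged from 1244 to 1399 CPM in controls and from 1194 to 1304 CPM in *Mef2c* cKO mice (exact permutation p = 0.5). The part of these cells in the *Acan* result was not tested.

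For *Hapln2*, the list is that of mature oligodendrocytes. All 12 of its genes had a positive log2 fold change, with a median of 0.51, close to the 0.50 of *Hapln2*. By limma, 10 of the 12 had an unadjusted p under 0.05. Only *Mobp* and *Cldn11* passed the cut-offs (log2 changes 0.64 and 0.77, limma adjusted p = 0.0344 and 0.00426), and 3 genes passed by limma voom. The summed level was 4779, 3428 and 5626 CPM in controls and 5536, 7062 and 7140 CPM in *Mef2c* cKO mice, so that the genotypes overlapped (exact permutation p = 0.2). Control replicate 2 was lowest in this sum and in *Hapln2*. Without it the log2 ratio of the sums was 0.34, and the log2 change of *Hapln2* was 0.41 and still past the cut-offs (adjusted p = 0.019 by limma). Of the oligodendrocyte precursor list 4 of 12 rose, *Olig1*, *Olig2*, *Sox10* and *Bcas1*, at log2 changes of 0.39 to 0.44, with *Sox10* close to the threshold (adjusted p = 0.0499 by limma) and 3 past the cut-offs by limma voom. The precursor genes *Pdgfra*, *Cspg4*, *Lhfpl3* and *Matn4* did not pass and had log2 changes of -0.04, 0.10, -0.28 and -0.30. The summed precursor list was 454.3 to 543.8 CPM in controls and 558.6 to 614.3 CPM in *Mef2c* cKO mice, without overlap (exact permutation p = 0.1). The part of both cell types in the *Hapln2* result was not tested.

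For *Tnc*, the lists are those of astrocytes, fibroblasts and striatal neurons. *Gfap*, the intermediate filament that rises in reactive astrocytes, had 49.4, 60.8 and 68.7 CPM in controls and 143.0, 130.0 and 190.8 CPM in *Mef2c* cKO mice (log2 change 1.37, adjusted p = 0.000302 by limma). *Aqp4*, the water channel of astrocyte endfeet, had 85.9, 81.7 and 83.7 CPM in controls and 135.2, 137.2 and 144.0 CPM in *Mef2c* cKO mice (log2 change 0.73, adjusted p = 2.96e-05 by limma). *Aldh1l1*, a general astrocyte marker, was lower (log2 change -0.39, adjusted p = 0.00663 by limma). Across the astrocyte list 2 of 12 rose, 1 fell and the median log2 fold change was -0.05. Of the 12 genes, 4 had a positive log2 fold change and 8 an unadjusted p under 0.05 by limma. The summed level was 5093 to 5407 CPM in controls and lower, at 4533 to 4818 CPM, in *Mef2c* cKO mice, without overlap (exact permutation p = 0.1). The part of astrocytes in the *Tnc* result was not tested.

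Of the fibroblast and meningeal list 1 of 12 rose, *Dcn*, the proteoglycan decorin, at 7.88, 7.17 and 6.15 CPM in controls and 50.8, 12.7 and 33.5 CPM in *Mef2c* cKO mice (log2 change 1.97, adjusted p = 0.00927 by limma). The collagens *Col1a1*, *Col1a2* and *Col3a1* had log2 changes of 0.31, 0.26 and -0.08 and did not pass. The summed list was 153.7 to 172.0 CPM in controls and 153.1 to 224.4 CPM in *Mef2c* cKO mice (exact permutation p = 0.4). Of 10 markers of striatal projection neurons *Drd1* and *Penk* rose (log2 changes 1.70 and 1.31), and several of the others stood apart in one library. The summed list was 221.9, 282.2 and 200.5 CPM in controls and 445.6, 217.6 and 401.4 CPM in *Mef2c* cKO mice (exact permutation p = 0.3). By this sum *Mef2c* cKO replicate 2 lay within the range of the controls, and the other *Mef2c* cKO mice were above every control. *Mef2c* cKO replicate 2 was the lowest of all mice for most genes of that list, among them *Adora2a*, named after its values were seen, which had 7.47, 9.56 and 5.14 CPM in controls and 20.3, 1.35 and 14.1 CPM in *Mef2c* cKO mice. That mouse had the smallest library total, 19326365 reads, and among the *Mef2c* cKO mice the lowest *Tnc* and the highest *Has3* and *Acan* level. Without it, the log2 fold change was 1.41 for *Tnc* and 0.46 for *Hapln2*, both still past the cut-offs, and -0.72 for *Acan*. The part of the depth and makeup of that library, or of the other *Mef2c* cKO libraries, in these values was not tested. Of the pyramidal neuron list 4 of 12 rose and 4 fell. By limma, 0 of 12 microglia genes and 0 of 12 endothelial genes passed, with 3 and 1 at an unadjusted p under 0.05 and 0 and 0 past the cut-offs by limma voom.

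**Figure D5:**
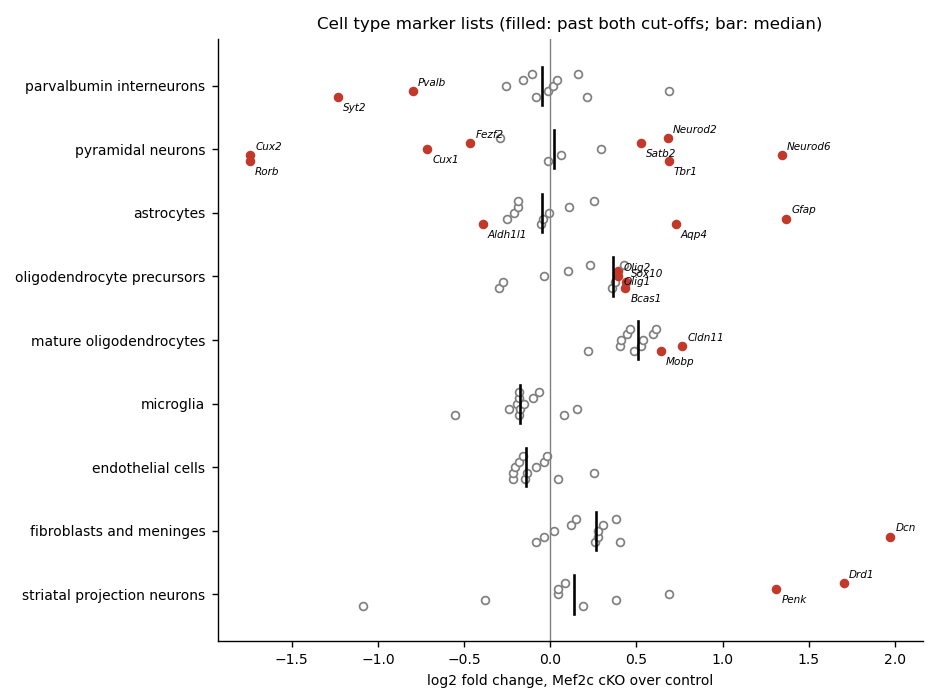
Log2 fold change, *Mef2c* cKO over control, of the genes of 9 cell type marker lists, with a bar at the median of each list and genes past both cut-offs filled and named. The mature oligodendrocyte genes lie to the right of 0 with a median of 0.51. *Pvalb* and *Syt2* lie apart on the left of their list. *Gfap* and *Aqp4* lie on the right of the astrocyte list, whose median is -0.05.

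The members also show why whole read counts were used in place of the deposited RPKM values. *Tnc* was listed at an RPKM of 2.75, 0.0985 and 0.0916 in controls and of 3.05, 1.45 and 0.149 in *Mef2c* cKO mice, from 156, 292, 348, 501, 213 and 829 reads. The lengths by which those reads had been divided were 1665, 60003, 73688, 5021, 7598 and 102873 bases. For *Tnc* the deposited values therefore differed more between mice of one genotype than between genotypes. When 2 mice of one genotype were compared across all genes, their log2 ratio had an SD of 2.41 to 2.49 on the deposited values and of 0.237 to 0.306 on CPM.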

How the data were processed

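The authors sequenced cortical RNA of 6 mice, 3 per genotype, from polyA-selected directional libraries. Reads were aligned to mm9 with TopHat and Bowtie and counted on genes with HTSeq (versions not given in the sources used here). The deposited values are RPKM, 1 table per mouse, in which the authors divided each count by the library total and by a length.

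Those lengths differed between mice for one gene, in a cycle along the genes in the order of their NCBI gene numbers, so the deposited RPKM values were not comparable between mice. The library total, the lengths and the whole counts were recovered from each table, with 99.86% to 99.96% of the values above 0 recovered and the rest set as missing. The counts of every member were recovered by their place in the order in all 6 mice, and all counts summed to 99.82% to 99.88% of each total. Counts were divided by the library total to give CPM. The rule for counts of genes without a place in the order was tightened after 1 count outside the members was seen to bring a library above its total. The 92 rows without a gene name (0.0187% to 0.154% of summed RPKM) were left out.

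Log2(CPM + 0.1) was compared with limma 3.58.1 (lmFit, eBayes with trend) in R 4.3.3. Genes needed a CPM above 0.5 in each mouse of 1 genotype or the other and at least 2 recovered counts per genotype. Genes were called at a Benjamini-Hochberg adjusted p under 0.05 over all tested genes and an absolute log2 fold change above 0.3. The recovery and the fit were tested on simulated data. Summed lists were compared by a two-sided exact permutation test. Fold changes on this log2 scale understate those of genes with low values. Nothing in the labels says that 2 samples came from 1 animal, and the p-values measure the spread between these 6 mice.

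All members are named, and of the other lists the genes past the cut-offs and those set beside a member. The members and lists were chosen with earlier results of these data known. The authors used a count model, for which limma on log values stands in here. Positions are from the gencode annotation of NCBIM37 (mm9) and promoters from RefSeq for GRCm38.p6. Tables and plots were made with Python 3.11.15, pandas 2.3.3 and matplotlib 3.10.9. The alternatives were other pseudocounts, filters, scalings and cut-offs, a replicate block, age as a covariate, limma voom on recovered counts, the deposited RPKM, leaving out each mouse and, added after seeing the data, the 12-week mice alone.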

Additional observations from a re-analysis of the deposited data

How the results depend on the processing

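*Tnc* and *Hapln2* stayed past the cut-offs in all 16 refits on recovered counts, at log2 fold changes of 1.03 to 1.41 and 0.41 to 0.58. *Acan* kept its direction in all 16, at -0.72 to -0.37, and passed in 6. It missed with no filter on low values (limma adjusted p = 0.0693), with no variance trend (0.0622) and with age as a covariate (0.0674). With 1 mouse left out, 2 to 3 members, 11 to 15 net genes and 18 to 30 marker genes passed. *Tnr* passed both cut-offs without control replicate 3 (log2 fold change 0.34). *Hapln1*, *Hapln4* and the pyramidal sum did not keep a direction: *Hapln1* had log2 fold changes of -0.0761 to 0.0571 with 1 mouse left out and 0.11 in the 12-week mice alone, *Hapln4* had 0.0226 in the latter, and the pyramidal log2 ratio of sums ran from -0.0834 to 0.0581.

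With a log2 fold change above 1 required, 1 member, 4 net genes and 8 marker genes passed. On the deposited RPKM values limma called 0 of 5 members tested, 0 of 32 net genes and 0 of 66 marker genes (0, 1 and 3 at an unadjusted p under 0.05), and *Ncan* had a log2 fold change of -0.45. Dividing by coding length moved the control level per kilobase to 86.7 for *Bcan*, 79.97 for *Ncan*, 1.83 for *Vcan*, 14.5 for *Hapln1*, 19.5 for *Hapln2*, 170.5 for *Hapln4*, 21.2 for *Tnr* and 1.26 for *Has3*. Same-numbered mice deviated from their genotype means with correlations of -0.18, -0.11 and -0.08. With 3 mice per genotype these values cannot decide whether equal numbers mark pairs by litter or batch, and replicate 1 was 14 weeks old in both genotypes. With a replicate block, 2 members, 12 net genes and 20 marker genes passed, and *Acan* did not (limma adjusted p = 0.0974). Depth limits *Acan*, *Tnc* and *Has3* most, with down to 89, 156 and 77 reads in a mouse.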
